A study of Mus musculus with 6 samples.

Results

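Lsamp, Ntm, Opcml and Negr1 encode IgLON proteins, Cntn1, Cntn3, Cntn4, Cntn5 and Cntn6 encode contactins, and Cntnap2 encodes Caspr2, a binding partner of the contactin family that is itself a neurexin relative. These 10 adhesion genes, of the 32285 genes in the count tables, were described here in the nuclei of rd10 mouse retina. They were chosen by symbol with earlier results of the contrast between saline control and IL-27 treated libraries known. Their differences between the groups are therefore given as descriptions. IgLONs and contactins sit on the outer face of the membrane through a lipid (GPI) anchor and bind one another, or partners on the next cell, through immunoglobulin domains. In the nervous system they are known for neurite outgrowth, synapse formation and the sorting of axons and dendrites. Caspr2 spans the membrane and is known for holding potassium channels beside the node of Ranvier. In the retina, contactins mark some of the cell types that form separate layers of contacts.

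All 6 libraries came from mice of the strain B6.CXB1-Pde6b-rd10/J, which carry the rd10 missense allele of Pde6b, a rod phosphodiesterase gene, so that the rods of controls and treated eyes alike degenerate. Eyes received recombinant IL-27 (20 ng) or saline into the vitreous at post-natal day 18, and the retinas were frozen at day 20. There were 3 libraries per group, called saline 1, 2 and 6 and IL-27 4, 5 and 10 after the library names. The study's methods give the same n per group, of frozen retinas, and neither they nor the labels say which mouse gave each library or whether retinas were pooled. The p-values measure the spread between these libraries, and no retina without an injection was among the samples.

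The libraries held 36678332 to 48260748 UMIs and 8249 to 9169 retained nuclei each, with a median of 2782 to 3788 UMIs per nucleus. Pairs of libraries shared 18 to 30 barcodes. Clusters of nuclei were named from marker genes, with the 10 genes and 27 partner genes kept out of the clustering. 15511 nuclei were rods, 11043 amacrine cells (AC), 10225 bipolar cells (BC), 5450 Muller glia, 3336 cones, 2231 retinal ganglion cells (RGC), 1579 microglia, 494 horizontal cells (HC), 293 astrocytes, 243 endothelial cells and 117 pericytes, and 1717 nuclei stayed unnamed. A level below is a gene's share of the summed UMIs of a cell type in a library, on the usual CPM scale, with the mean and SD over 6 libraries unless a group is named. In summed counts of nuclei, fewer expressing cells and less RNA per cell cannot be told apart.

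The genes share great length, which the choice of members did not use. Their spans in the GENCODE M21 annotation (GRCm38) ran from 291 kb for Cntn1 to 2245 kb for Cntnap2, with a median of 995 kb, beside a median of 12.3 kb over 32235 matched genes. 7 of the 10 were longer than 500 kb, against 0.723% of all genes. Nuclear RNA holds unspliced transcripts, and a long gene gives more places at which a read can start. Levels in CPM are not corrected for span, so values per kb of span are also given below for most of the genes. Lsamp (ENSMUSG00000061080, chromosome 16, 39984361 to 42181679, plus strand) had 1105481 UMIs over the named cell types, the most of the 10, and Cntn3 (ENSMUSG00000030075, chromosome 6, 102162655 to 102573101, minus strand) had 10850, the fewest. Ntm (ENSMUSG00000059974, chromosome 9, 28994750 to 29963141, minus strand) and Opcml (ENSMUSG00000062257, chromosome 9, 27790775 to 28925410, plus strand) lie close together on chromosome 9, which also holds Cntn5 (ENSMUSG00000039488, chromosome 9, 9660891 to 10904775, minus strand). Cntn6 (ENSMUSG00000030092, chromosome 6, 104492790 to 104863406, plus strand) and Cntn4 (ENSMUSG00000064293, chromosome 6, 105677660 to 106699310, plus strand) lie close together on chromosome 6, where Cntn3 and Cntnap2 (ENSMUSG00000039419, chromosome 6, 45059357 to 47304213, plus strand) also lie. Negr1 (ENSMUSG00000040037, chromosome 3, 156561794 to 157316445, plus strand) and Cntn1 (ENSMUSG00000055022, chromosome 15, 92051165 to 92341967, plus strand) share no chromosome with another of the genes. Other annotated genes overlap 6 of the spans. The one with most UMIs for its host is 4930587E11Rik within Cntn3, whose UMIs came to 37.6% of those of Cntn3, and Gm48091, at the end of Opcml, came to 12.4%. Counts of these pairs could have been split between them.

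**Figure D1:**
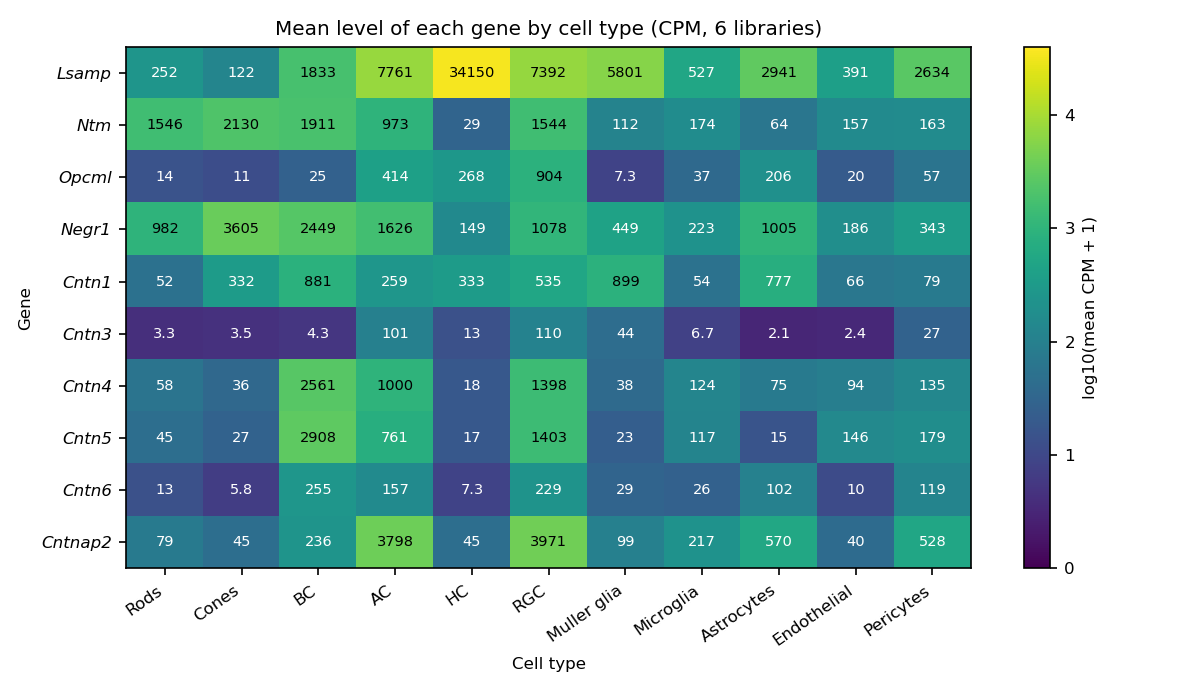
Each cell gives the mean level of a gene (rows) in a cell type (columns) over 6 libraries, in CPM of summed UMIs, and its colour the log10 of that mean plus 1. Lsamp in HC, at 34150.5 CPM, is the highest value, and BC are the highest type for Cntn4, Cntn5 and Cntn6.

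Among the IgLONs, Lsamp (limbic system-associated membrane protein) was a gene of HC. It stood at 34150.5 ± 1774 CPM there (SD, n = 6 libraries), between 32007 and 36880.5 CPM. AC followed with 7761 ± 283 CPM and RGC with 7392 ± 433 CPM, whose ranges over libraries overlapped. Muller glia held 5801 ± 746 CPM, astrocytes 2941 ± 340.2 CPM and BC 1833 ± 186 CPM. Photoreceptors were lowest, with 252 ± 34.3 CPM in rods and 122 ± 31.3 CPM in cones. The level in HC was 279 times that in cones. Per kb of its span Lsamp reached 15.5 CPM in HC, the highest value of any of the 10 genes in any type.

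Ntm (neurotrimin) had a different order. Cones held 2130.1 ± 180.0 CPM, BC 1911 ± 26.2 CPM, rods 1546 ± 122 CPM, RGC 1544 ± 116 CPM and AC 973 ± 69.02 CPM, while HC held only 29.1 ± 15.4 CPM, the lowest of the 11 types. The ranges of cones and BC overlapped, as did those of rods and RGC. Negr1 (neuronal growth regulator) was also highest in cones, at 3605 ± 576 CPM, then in BC at 2449 ± 106 CPM and AC at 1626 ± 93.1 CPM, each range clear of the next, and was lowest in HC at 149 ± 47.7 CPM. Opcml (opioid-binding cell adhesion molecule) was a gene of RGC, at 904 ± 64.5 CPM, with 414 ± 23.4 CPM in AC and 268 ± 15.2 CPM in HC, again without overlap between neighbours, and 7.33 ± 2.56 CPM in Muller glia. Per kb of span, Negr1 in cones stood at 4.78 CPM, Ntm in cones at 2.20 and Opcml in RGC at 0.80. The 4 IgLONs were thus highest in HC, cones or RGC, and none in BC or a glial type.

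The contactins fell into 3 patterns. Among the named types, Cntn4, Cntn5 and Cntn6 were highest in BC, RGC and AC, in that order. For Cntn6 this leaves out unnamed cluster 7, at 2574 CPM, whose highest marker score was for AC on 2 markers. The named types held 29126 Cntn6 UMIs, beside 55897 in all nuclei with called doublets included, so its order depends on which clusters were named. Cntn5, which is known to shape the dendrites of some direction-selective ganglion cells, stood at 2908 ± 199 CPM in BC, 1403 ± 168 CPM in RGC and 761 ± 46.8 CPM in AC, without overlap of neighbours, and at 17.4 ± 13.7 CPM in HC. Cntn4, an APP-binding contactin, had the same order, with 2561 ± 251 CPM, 1398 ± 126 CPM and 999.6 ± 37.4 CPM, and 17.8 ± 7.45 CPM in HC. Cntn6, a ligand of Notch, was at 255 ± 18.8 CPM in BC and 229 ± 18.1 CPM in RGC, whose ranges overlapped, and 157 ± 14.5 CPM in AC. It also had a level of 102 ± 27.6 CPM in astrocytes, whose range overlapped those of AC and pericytes, against 13.01 ± 3.57 CPM in rods.

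Cntn1, the contactin that pairs with Caspr at the paranode, had a high glial level. It stood at 899 ± 135 CPM in Muller glia, 881 ± 36.2 CPM in BC and 777 ± 159.7 CPM in astrocytes, with overlapping ranges, against 51.6 ± 6.06 CPM in rods. Cntn3 had the fewest UMIs. Its highest levels were 109.8 ± 9.77 CPM in RGC and 101 ± 7.91 CPM in AC, and 64.5% of its UMIs over the named types came from AC. In rods, cones, BC, astrocytes and endothelial cells its mean was between 2.14 and 4.34 CPM. Cntnap2 was shared by RGC, at 3971 ± 238 CPM, and AC, at 3798 ± 180.2 CPM, with overlapping ranges, and the next type, astrocytes, was at 569.9 ± 161 CPM. Per kb, Cntn1 in Muller glia (3.09 CPM), Cntn4 in BC (2.51 CPM) and Cntn5 in BC (2.34 CPM) were close, and Cntn3 in RGC was at 0.27 CPM.

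Together the 10 genes made up 3.503 ± 0.184% of UMIs in HC, 1.86 ± 0.107% in RGC, 1.68 ± 0.0538% in AC and 1.31 ± 0.04196% in BC (SD, n = 6). They were 0.304 ± 0.0214% in rods and 0.1505 ± 0.0306% in microglia. Pericytes, with 117 nuclei in all, ranged from 0.159 to 0.858% between libraries, so their levels carry little weight.

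The share of nuclei with at least 1 UMI of a gene depends on depth, which ran from a median of 1266 UMIs in rods to 9942 in HC. For the thinned shares each nucleus was reduced to 1000 UMIs, and shallower nuclei were left out, which were 3704 of 15002 rods, 82 of 1558 microglia, 22 of 237 endothelial cells and at most 46 in any other type. Lsamp was found in 100% (95% interval 99.2 to 100%) of HC, 97.8% of RGC and 14.6% of microglia (exact Clopper-Pearson interval, which covers counting error only). Droplets can hold free RNA, whose amount was not measured here, so the share in microglia, a type not known for these genes, is given for comparison. Cntn5 was found in 31.6% of BC and 48.3% of RGC after thinning, against 2.78% of microglia and, among the deeper rods, 3.58%. Opcml was found in 54.05% of RGC against 1.15% of microglia. Cntn3, at 8.47% of RGC, 6.96% of AC and 0.203% of microglia, was a gene of few nuclei. Before thinning it was found in 38.3% of RGC, 19.6% of AC and 0.706% of microglia. Cntn5 was present in a smaller share of BC than of RGC although its level was higher in BC.

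**Figure D2:**
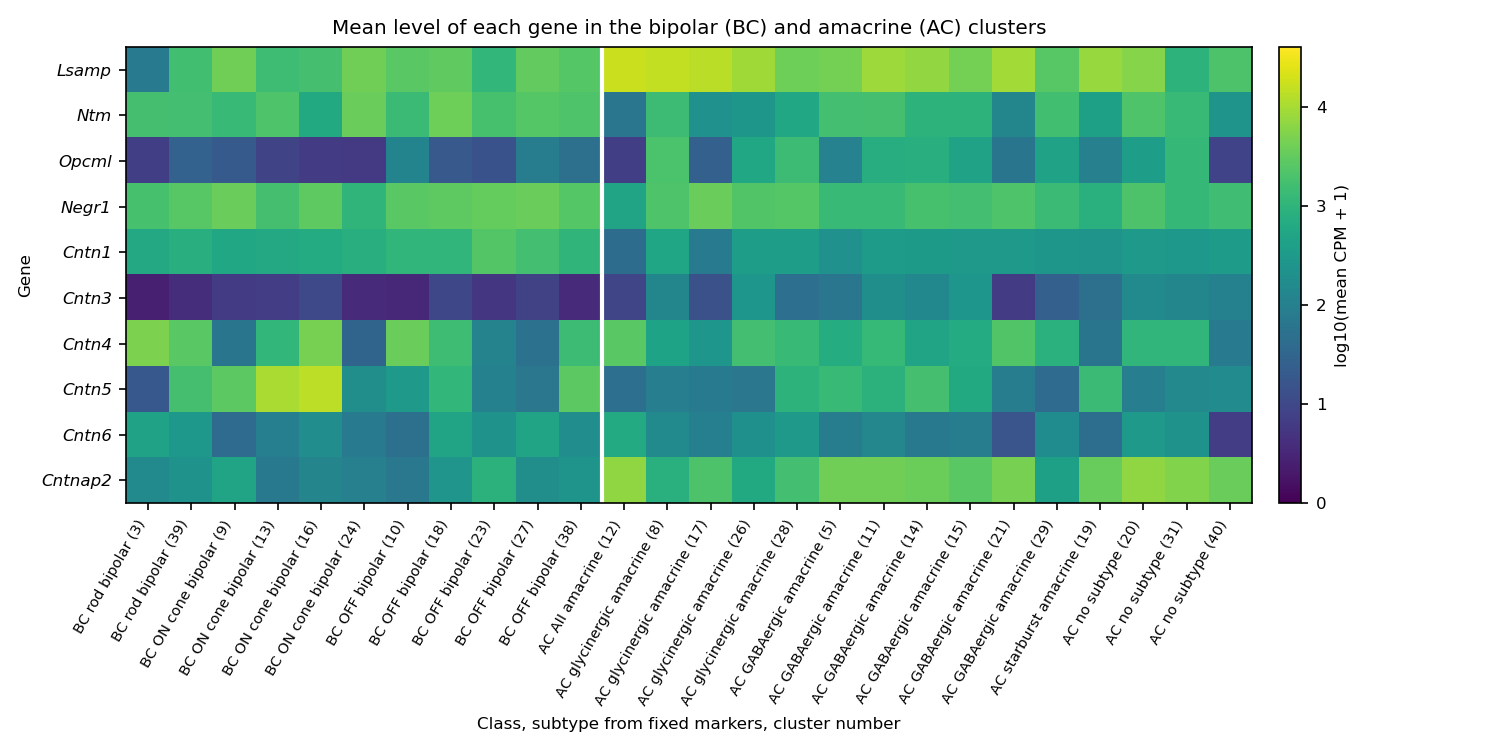
Colour gives the log10 of the mean CPM plus 1 of each gene (rows) in 11 BC clusters and 15 AC clusters (columns, split by the white line), over 6 libraries, with the subtype that the marker genes give and the cluster number. Cntn5 is brightest in ON cone bipolar clusters 16 and 13 and lowest in rod bipolar cluster 3, where Cntn4 is at its highest.

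Within BC, Cntn5 and Cntn4 differed most between clusters. Cntn5 stood at 13811 ± 801 CPM in cluster 16 (992 nuclei), whose leading genes include it, and at 10395 ± 489.6 CPM in cluster 13 (1040 nuclei), both with ON cone bipolar markers. UMIs of Cntn5 were found in 100% and 98.5% of their nuclei. In cluster 3, the rod bipolar-like nuclei (3161 nuclei), it was at 17.2 ± 4.96 CPM and found in 6.56%. A smaller cluster with rod bipolar markers, 39 (223 nuclei), held 1776 ± 497 CPM of Cntn5 and 1637 ± 118 CPM of Lsamp. Its nuclei were deep, with a median of 9310 UMIs against 4044 in cluster 3, and whether they are mixed nuclei was not tested. The ratio of the highest to the lowest of 11 BC clusters was 804 for Cntn5, 170.3 for Cntn4, 50.1 for Lsamp and 3.48 for Negr1. These clusters were made from the same nuclei, so the contrasts are descriptions without a test.

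Cntn4 was highest in the rod bipolar-like cluster, at 4902 ± 443 CPM, and was also high where Cntn5 was high, at 4627 ± 536 CPM in cluster 16. A further ON cone bipolar cluster, 24, was low in both, with 28.8 ± 17.3 CPM of Cntn4 and 185 ± 150.3 CPM of Cntn5, and instead held 3601 ± 152 CPM of Ntm. The OFF bipolar cluster 10 held 3572 ± 171 CPM of Cntn4 with 296 ± 344 CPM of Cntn5. Cntn1 was a gene of OFF bipolar clusters. Its highest 5 BC clusters, from 2329.7 ± 212 CPM in cluster 23 and 1655 ± 163 CPM in cluster 27 down to 1031 ± 131 CPM in cluster 38, all carried OFF markers, and the ON cone clusters were between 552 and 771 CPM. Cluster 38 was also deep, with a median of 8900.5 UMIs. Its leading genes included Hs3st4 and Slc7a15, which also led ON cone cluster 13, and Sec1, which led ON cone cluster 24. They also included Grik1 and Otor, which led OFF cluster 10. Its OFF label is therefore uncertain, and whether its nuclei are mixed was not tested. Ntm reached 3891 ± 225 CPM in OFF cluster 18 and had its lowest BC level, 620.2 ± 49.1 CPM, in the cluster highest in Cntn5. Lsamp was lowest in the rod bipolar-like cluster, at 80.7 ± 8.46 CPM, and reached 4044 ± 706 CPM in ON cone cluster 9.

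Within AC, the cluster with AII amacrine markers (cluster 12, 1085 nuclei) held the highest or the lowest level of 8 of the 10 genes. Its marker score was higher for HC (0.95, on 2 markers, too few for a name) than for AC (0.53), so its class is less certain. It had the highest AC level of Lsamp, 17372 ± 225 CPM, of Cntnap2, 6928 ± 220.4 CPM, of Cntn4, 2617 ± 147 CPM, and of Cntn6, 648 ± 41.9 CPM. It had the lowest AC level of Ntm, 62.02 ± 34.98 CPM, of Opcml, 6.24 ± 2.42 CPM, of Negr1, 489 ± 32.2 CPM, and of Cntn1, 41.8 ± 8.67 CPM. Opcml was instead a gene of glycinergic clusters 8 and 28, at 1968 ± 160.2 CPM and 1438 ± 178 CPM. Cntn5 was highest among AC in GABAergic cluster 14, at 1757 ± 169 CPM, and the starburst-like cluster 19 held 1374 ± 272 CPM. Cntn3 was highest in GABAergic cluster 15, at 264 ± 72.8 CPM, and glycinergic cluster 26, at 258 ± 42.4 CPM, and there it was found in 27.8% and 46.6% of nuclei. Cntnap2 was present throughout AC, and its lowest cluster, 29, still held 414 ± 242 CPM.

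Across the 39 clusters with nuclei in every library, log2 levels of pairs of the 10 genes had a median Pearson r of 0.22, a description only, since clusters share libraries. The highest was Opcml with Cntn3 (0.64) and the lowest Lsamp with Ntm (-0.34). Likeness to genes outside the list was measured over the 11 cell types among 15127 genes, as the Pearson r of log2 mean levels. The most similar to Lsamp were Mmp16, Zfpm2 and Zfp811 (r = 0.973, 0.958 and 0.939), all highest in HC. For Ntm they were Gm15520, Gm13944 and Gm28370 (r = 0.969, 0.963 and 0.959), for Opcml Gm48091, Adgra1 and Brinp1 (r = 0.941, 0.933 and 0.924) and for Negr1 Gm15577, Fam227b and Syt9 (r = 0.985, 0.949 and 0.938). Among the contactins, Cntn1 was closest to Dpysl5, Hmgn3 and Gm12925 (r = 0.933, 0.925 and 0.911), Cntn3 to Sntg1, 4930587E11Rik and Spock1 (r = 0.947, 0.940 and 0.928) and Cntn4 to Prr16, Hecw1 and Car10 (r = 0.988, 0.977 and 0.975). Cntn5 was closest to Cntnap5b, C130073E24Rik and Ntng1 (r = 0.959, 0.957 and 0.956), of which Ntng1 encodes another GPI-anchored adhesion protein, and Cntn6 to Inpp4b, Kcnh5 and Ncam2 (r = 0.916, 0.910 and 0.909). Cntnap2 was closest to Sgcd, Itgbl1 and Fgf14 (r = 0.978, 0.968 and 0.966). In 4 cases (Gm15520 for Ntm, Gm48091 for Opcml, Gm15577 for Negr1, 4930587E11Rik for Cntn3) the similar gene overlaps the span of the member itself, and their counts may not be separate.

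To ask whether levels differed between IL-27 treated and saline control retinas, UMIs were summed per library within each type and tested with edgeR's quasi-likelihood test over all genes that passed a filter on low counts, with Benjamini-Hochberg adjustment. No gene of the 10 passed an adjusted p of 0.05 in rods (10 tested), cones (8), BC (10), AC (10), HC (9) or RGC (10), nor in astrocytes (7), endothelial cells (3), pericytes (3) or Muller glia (10). Microglia gave 1 of 9 tested, Cntn5, which was lower with IL-27 (background for lower calls 0.0222%). DESeq2 called 2 in Muller glia, where it called 0.654% of all genes, 1 in microglia (0.0222%) and 0 in each other type. Its share of all genes was 0.0148% in rods, 0.0199% in BC, 0.00597% in AC, 0.0937% in pericytes and 0% in the other types. With edgeR the share of all genes called was 0.00738% in rods, 0.00597% in AC, 0.0284% in Muller glia (0.0213% higher and 0.0071% lower with IL-27) and 0.0222% in microglia, and 0% in the other 7 types. At an unadjusted p under 0.05 there were 1, 1, 0, 1, 1 and 1 of the 10 genes in rods, cones, BC, AC, HC and RGC, where the background was 3.43, 3.47, 3.06, 3.01, 4.95 and 3.36% of genes tested. There were 2 in Muller glia and 3 in microglia (backgrounds 8.92 and 3.54%) and 0 in astrocytes, endothelial cells and pericytes (3.58, 3.35 and 3%). Groups did not overlap for 1 of 10 genes in rods, 0 of 8 in cones, 1 of 10 in BC, 0 of 10 in AC, 2 of 9 in HC and 0 of 10 in RGC (backgrounds 8.15, 8.79, 8.75, 8.74, 9.86 and 8.78%). They overlapped for all 7, 3 and 3 genes tested in astrocytes, endothelial cells and pericytes (8.53, 8.44 and 7.78%). Because the genes were chosen with this contrast known, nothing is read from these counts.

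**Figure D3:**
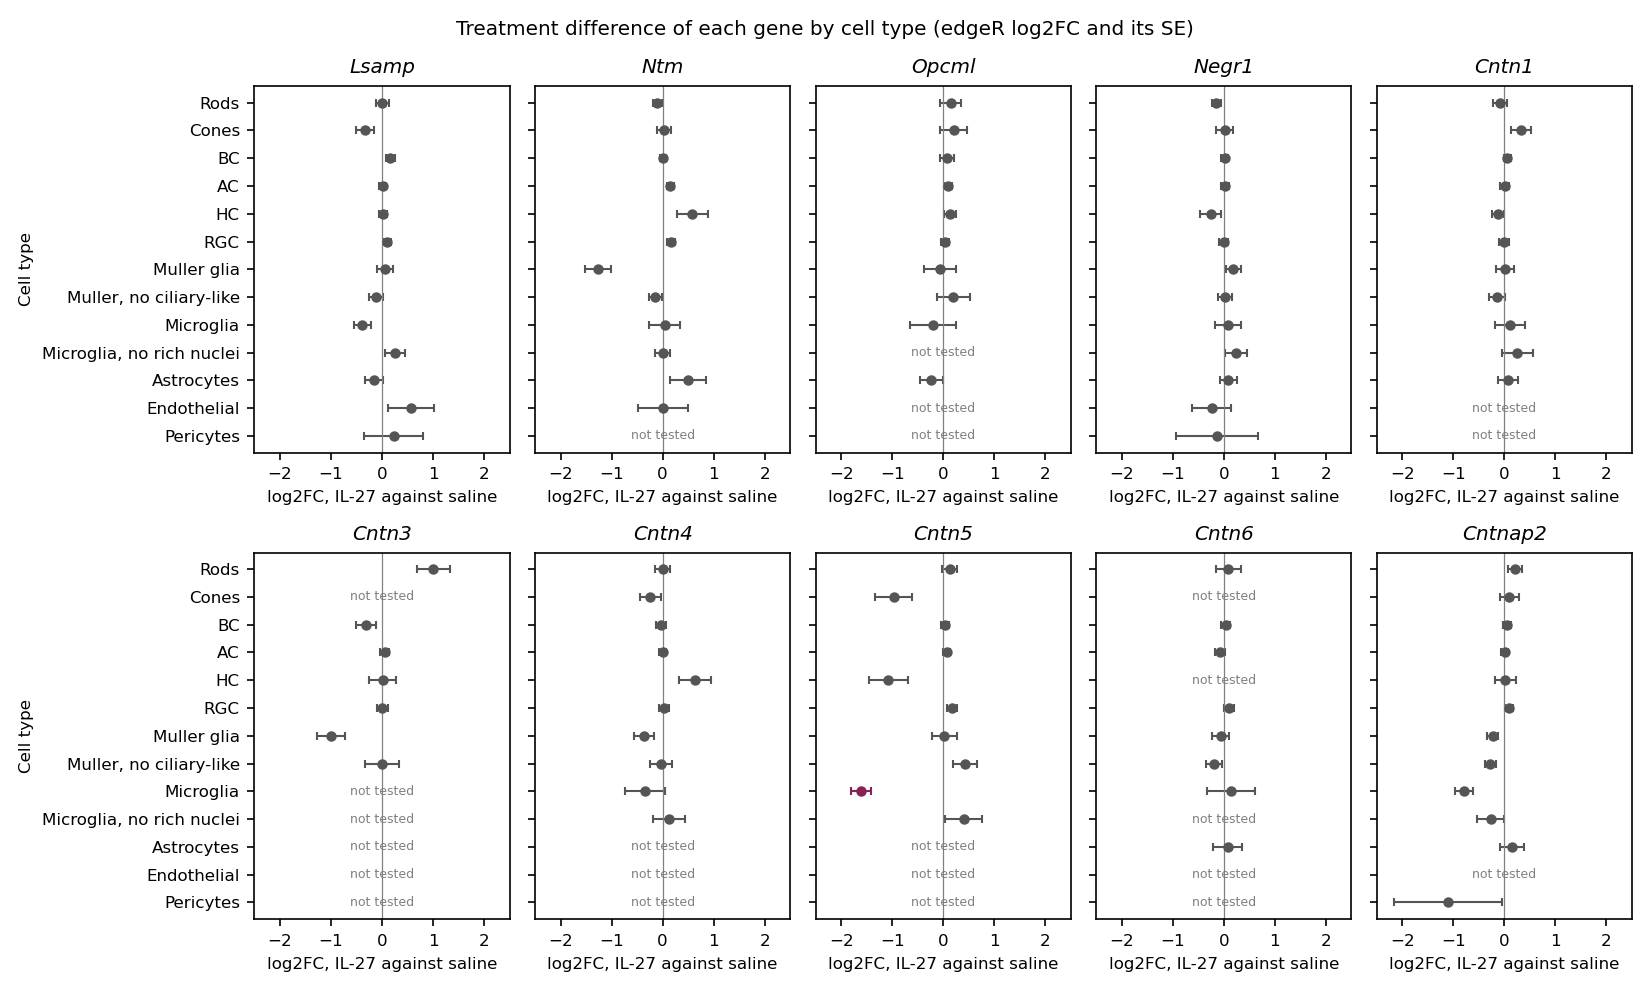
Points give the edgeR log2FC of IL-27 treated against saline control libraries (x axis, 3 libraries each) for each gene (panels) in each cell type (rows), bars its SE, and dark red marks an adjusted p under 0.05. In AC and RGC every gene lies between -0.07 and 0.17, Cntn5 in microglia is at -1.62, and Ntm in Muller glia is at -1.27.

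In AC and RGC, where the genes are abundant, log2FC of the 10 genes lay between -0.07 and 0.17, with SE of at most 0.11. Ntm had the smallest p in each, with a log2FC of 0.15 (SE 0.06) in AC and 0.16 (SE 0.07) in RGC, unadjusted p 0.0391 and 0.0476. Its AC levels were 899.8, 975 and 899 CPM in the saline control libraries and 957, 1055 and 1051 CPM in the IL-27 treated libraries, and the groups overlapped. Lsamp in HC was at 35557, 33333 and 33148 CPM in the saline control libraries and 36880.5, 33978 and 32007 CPM in the IL-27 treated libraries, a log2FC of 0.01 (SE 0.08), so that the highest level of any gene here did not differ beyond its spread. Cntn5 in BC was at 2746, 3229 and 2679.9 CPM in the saline control libraries and 3027, 2871 and 2894 CPM in the IL-27 treated libraries, a log2FC of 0.04 (SE 0.08). Negr1 in cones was at 3704, 3812 and 3289.6 CPM in the saline control libraries and 4111, 4106 and 2605 CPM in the IL-27 treated libraries, a log2FC of 0.02 (SE 0.17).

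Larger values were found where the genes were scarce. Cntn5 had a log2FC of -0.97 (SE 0.36) in cones and of -1.08 (SE 0.39) in HC, unadjusted p 0.0158 and 0.0105. Cones held 17.3, 26.7 and 66.7 CPM in the saline control libraries and 18.2, 20.7 and 14.7 CPM in the IL-27 treated libraries, where saline 6 was the high library and the groups overlapped. HC held 44.9, 13.6 and 13.3 CPM in the saline control libraries and 14.5, 6.65 and 11.7 CPM in the IL-27 treated libraries, from 92 UMIs in all, where saline 1 was the high library and the groups overlapped. Cntn3 in rods was higher in each IL-27 treated library than in the controls, on 71 UMIs in all, at 2.104, 2.33 and 1.296 CPM in the saline control libraries and 3.91, 6.04 and 3.82 CPM in the IL-27 treated libraries, with a log2FC of 1.0 (SE 0.32) and unadjusted p 0.0076.

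Microglia are the resident macrophages of the retina and are not known for these neuronal adhesion genes. In their summed UMIs Cntn5 was at 189.8, 155 and 192 CPM in the saline control libraries and 45.4, 64.6 and 56.7 CPM in the IL-27 treated libraries. The groups did not overlap, with means of 179 ± 20.8 CPM for saline control against 55.6 ± 9.63 CPM for IL-27 treated libraries (SD, n = 3 each), a log2FC of -1.62 (SE 0.20) and an edgeR adjusted p of 0.00747. Cntnap2 also did not overlap, at 339, 256 and 229.7 CPM in the saline control libraries and 136, 171 and 168 CPM in the IL-27 treated libraries, a log2FC of -0.79 (SE 0.18) with an edgeR adjusted p of 0.697. Lsamp, at 677, 569 and 541 CPM in the saline control libraries and 384, 432 and 558 CPM in the IL-27 treated libraries, had a log2FC of -0.39 (SE 0.17) and overlapping groups. Groups did not overlap for 2 of the 9 genes tested, against 8.15% of all genes tested. The other 6 had log2FC between -0.34 and 0.14, and Cntn3, with 23 UMIs, was not tested.

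The Cntn5 UMIs came from few nuclei. Of 691 saline control microglia, 4 held 56 to 76 Cntn5 UMIs each and together 261 of the group's 318 (82.1%). They came from all 3 saline control libraries, 2 of them from saline 1. Of 867 IL-27 treated microglia, none held 20 or more, and 4 held 15 or 16 and together 63 of 119 (52.9%). No Cntn5 UMI was found in 652 of the saline control and 818 of the IL-27 treated nuclei. The 4 saline control nuclei were deep, with 13623 to 18504 UMIs beside a median of 2178 in nuclei without Cntn5. Each carried 11 to 40 UMIs of the 9 microglial markers together with 12 to 22 of the 8 BC markers. AC marker UMIs numbered 9 to 15 in 3 of them and 0 in the nucleus from saline 6, which had 13 RGC marker UMIs. Per 10000 UMIs, microglial markers were at 14.9 in these nuclei and 53.4 in saline control nuclei without Cntn5, and BC markers at 11.1 and 3.85. The 4 IL-27 treated nuclei had a median of 6921 UMIs, with 7.97 microglial and 9.78 BC marker UMIs on the same scale. IL-27 treated nuclei without Cntn5 held 51.9 and 6.598. In nuclei with 1 to 9 Cntn5 UMIs, BC markers were at 8.36 (saline control) and 22.2 (IL-27 treated), and microglial markers at 51.2 and 40.3. Against these, BC markers of the 8 nuclei were higher in saline control and lower in IL-27 treated retinas. Microglial markers of the 8 were lower in both groups. The share of nuclei with at least 3 BC marker UMIs was 100% and 75% among the 8, against 17.1% and 11.1% with 1 to 9 Cntn5 UMIs (saline control and IL-27 treated). That share is not corrected for depth, and nuclei with 1 to 9 Cntn5 UMIs had medians of only 2564 and 2500 UMIs. Called doublets were removed before nuclei were named, so none of the 8 could be among them, and whether they are mixed nuclei was not tested.

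A cutoff of 10% of UMIs from the 10 genes and Meg3, a non-coding RNA abundant in neurons, left every microglial nucleus in place, since the highest share was 2.79%, and no nucleus of any type reached 10%. With a cutoff of 1%, chosen after seeing the data, 26 nuclei were left out, 13 in each group, which were 1.88% and 1.499% of the microglia. They held 75.3% of the microglial UMIs of Cntn5, 73.9% of Cntnap2, 71.2% of Lsamp, 54.5% of Cntn4, 45.7% of Ntm and 38.4% of Negr1. Split by group, they held 87.7% of the saline control and 42.02% of the IL-27 treated Cntn5 UMIs. As the cutoff is made of the genes themselves, levels without these nuclei are lower by construction. Without them Cntn5 was at 18.2, 34.6 and 19.6 CPM in the saline control libraries and 18.3, 50.4 and 21.6 CPM in the IL-27 treated libraries, a log2FC of 0.40 (SE 0.37), and the groups overlapped. Cntnap2 was at 75.7, 55.7 and 63.2 CPM in the saline control libraries and 29.9, 66.9 and 62.3 CPM in the IL-27 treated libraries, a log2FC of -0.26 (SE 0.26). Lsamp was at 119.7, 161 and 155 CPM in the saline control libraries and 128, 183 and 209 CPM in the IL-27 treated libraries, a log2FC of 0.25 (SE 0.20). Of the 7 genes still tested, 0 passed an adjusted p of 0.05 with edgeR (0 at an unadjusted p under 0.05), beside 0% of 8641 genes tested, and the groups of all 7 overlapped.

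**Figure D4:**
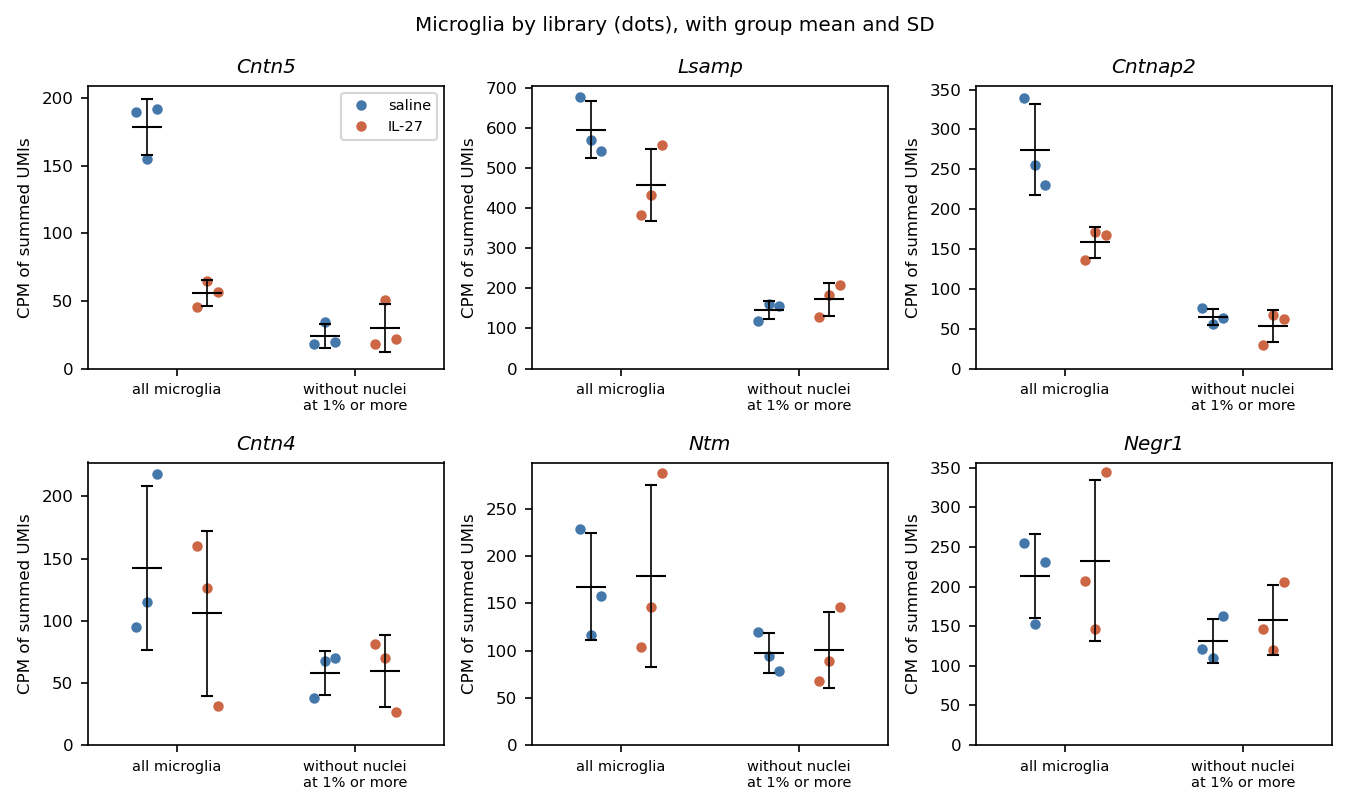
Dots give the CPM of 6 genes in each library's microglia, blue for saline control and orange for IL-27 treated, with the group mean and SD in black (n = 3), for all microglia and without the 26 nuclei at 1% or more of UMIs from the 10 genes and Meg3. The saline control dots of Cntn5 fall from 179 to 24.1 CPM on average and then overlap those of the IL-27 treated libraries.

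The 26 nuclei had a median of 7996 UMIs against 2090.5 in the other microglia. In their summed counts the 7 AC markers were at 758 CPM, beside 1154 in AC themselves and 105 in the other microglia. BC markers were at 1766 against 525 CPM in the other microglia, with 379 to 4555 CPM over the IL-27 treated libraries. RGC, HC and pericyte sums were also higher than in the other microglia, and rod, cone, Muller, astrocyte and endothelial sums were lower. The 26 nuclei were picked on genes abundant in AC and RGC, so these sums are a description. The 9 microglial markers were at 1402 CPM, against 5391. In all microglia the AC marker sum was between 119.9 and 198 CPM over the saline control libraries and between 99.3 and 141 CPM over the IL-27 treated ones, with 0 of 7 markers at 0, and the BC marker sum was between 391 and 523 CPM over the saline control libraries and between 476 and 904 CPM over the IL-27 treated ones, with 0 of 8 at 0. For both sums the ranges of the groups overlapped, as they did for all marker lists of other types but that of HC. The 5 HC markers summed to between 21.97 and 25.1 CPM over the saline control libraries and between 9.07 and 20.9 CPM over the IL-27 treated ones, all 5 higher in saline control, with 0 at 0, and to between 21.2 and 23.97 CPM over the saline control libraries and between 9.59 and 18.3 CPM over the IL-27 treated ones without the 26 nuclei. Meg3 itself was apart in all microglia, at 321, 367 and 691 CPM in the saline control libraries and 211, 226 and 311 CPM in the IL-27 treated libraries, and not without the 26 nuclei, at 57.6, 76.9 and 82.8 CPM in the saline control libraries and 64.9, 73.1 and 127 CPM in the IL-27 treated libraries. The part of these values in the differences of Cntn5 and Cntnap2 was not tested. The Cntn5 call was lost without saline 1, saline 6, IL-27 4 or IL-27 10, with log2FC between -1.76 and -1.504 with any library left out, and it also ended when the clustering changed. Its log2FC was -0.55 (SE 0.40) at a resolution of 0.5 and -0.29 (SE 0.43) with the genes and their partners allowed into the clustering. It was -0.63 (SE 0.22) with called doublets put back. With the depth limit set within each type, added after seeing the data, which leaves out deep nuclei, it was 0.18 (SE 0.32).

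The nuclei named Muller glia, the radial glia that span the retina, held a cluster of 645 nuclei set apart by Fbln1, Frmpd4, Reln and Csmd3 (1454, 3868, 1585 and 1722 CPM, against 2.78, 3.96, 7.38 and 11.02 CPM in the largest Muller cluster). Of 9 listed genes of the ciliary epithelium, Zic1 was found in 69.6%, Best2 in 21.7%, Otx1 in 20.8%, Zic2 in 18.9% and Wfdc1 in 14.1% of its nuclei, each more than in the largest Muller cluster. Msx1, Aqp1 and Opn5 were found in only 3.72, 0.9302 and 0.6202%, and Col9a1 was lower than in the largest Muller cluster, at 1197 against 1432 CPM. The nuclei are called ciliary-like on these 5 of 9 genes, and the name is a label for the cluster only. All 7 Muller markers were present in it at lower levels than in the largest cluster. Rlbp1 (40.9 against 298 CPM), Abca8a (176 against 1065) and Slc1a3 (270.3 against 1379) differed most, then Sox9 (19.5 against 48.8), while Glul (673 against 713), Clu (339.8 against 401) and Dkk3 (900.3 against 1352) were nearer. After the depth limit the libraries held 225, 217 and 95 of these nuclei (saline control) and 13, 6 and 87 (IL-27 treated). They came from 1145, 1013 and 892 Muller nuclei in the saline control libraries and 805, 836 and 750 in the IL-27 treated ones. Pooled over the libraries of a group, the shares were 17.6% and 4.43%. By library the shares overlapped, since that of IL-27 10 was above that of saline 6.

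The adhesion genes differed between the ciliary-like and the other Muller nuclei in both directions. Lsamp, abundant in Muller glia, was at 492, 473 and 491 CPM in the saline control libraries among the ciliary-like nuclei against 6810.0, 6115 and 6811 CPM in the other Muller nuclei. After thinning it was found in 24.3% and 97.4% of them. Negr1 and Cntn1 were lower too, with saline control means of 132 against 472 CPM and 246 against 1013 CPM. Ntm went the other way, at 808, 759 and 799.5 CPM in the saline control libraries against 49.9, 64.6 and 51.1 CPM, and so did Cntn3, at 274, 274 and 288 CPM in the saline control libraries against 14.01, 34.3 and 19.04 CPM. Among the 39 clusters of all nuclei, the smaller of the Muller clusters, 22 (681 nuclei, with Fbln1 among its leading genes), was highest in Cntn3, at 302 ± 211 CPM. The marker score of cluster 22 was higher for pigmented epithelium (RPE, 3.02) than for Muller glia (1.55). With only 1 RPE marker passing, too few for a name, it was named Muller glia, so that name is less certain. The ciliary-like nuclei made up 11.8% of Muller nuclei and 9.85% of their UMIs, and held 60.5% of the Ntm, 56.6% of the Cntn3 and 1.04% of the Lsamp UMIs. In IL-27 4 and 5, which held few such nuclei, 8 and 9 Ntm UMIs were counted in them, so treated levels within the cluster are not compared. In IL-27 10, with 87 nuclei, Ntm was at 516 and Cntn3 at 145 CPM.

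**Figure D5:**
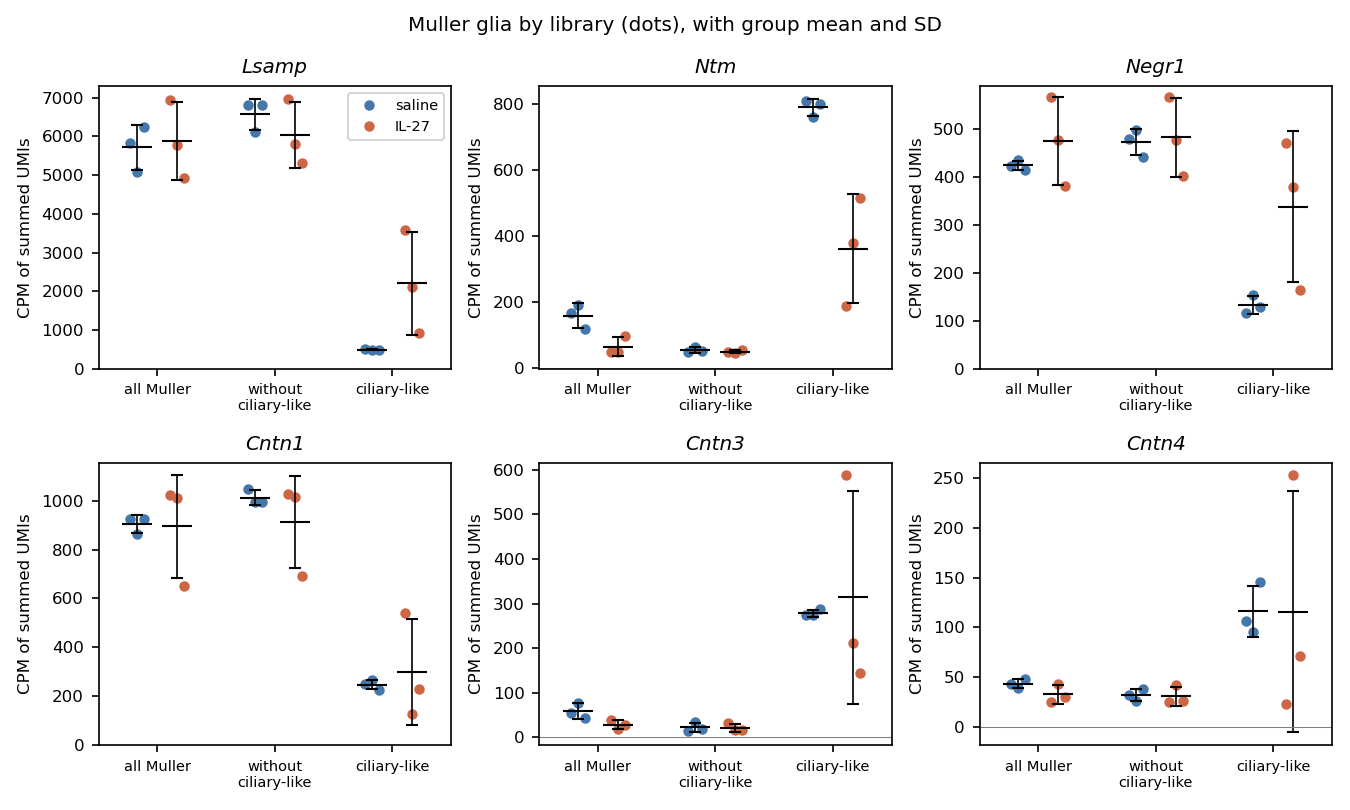
Dots give the CPM of 6 genes in each library, blue for saline control and orange for IL-27 treated, with the group mean and SD in black (n = 3), for all Muller glia, for Muller glia without the ciliary-like nuclei and for the ciliary-like nuclei. Ntm and Cntn3 separate the groups among all Muller glia and not without the ciliary-like nuclei, of which IL-27 4 and IL-27 5 hold only 13 and 6.

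Among all Muller glia Ntm was at 166, 191 and 119 CPM in the saline control libraries and 49.9, 48.5 and 96.96 CPM in the IL-27 treated libraries. The groups did not overlap, with means of 159 ± 36.9 CPM for saline control against 65.1 ± 27.6 CPM for IL-27 treated libraries (SD, n = 3 each), a log2FC of -1.27 (SE 0.26) and an edgeR adjusted p of 0.18. Cntn3 was at 53.7, 78.1 and 43.3 CPM in the saline control libraries and 39.4, 18.9 and 27.8 CPM in the IL-27 treated libraries, a log2FC of -1.0 (SE 0.27) with an edgeR adjusted p of 0.304. Other measures moved with these genes. The 9 RGC markers summed to between 113 and 126 CPM over the saline control libraries and between 80.9 and 105 CPM over the IL-27 treated ones, 7 of them higher in saline control. The 7 endothelial markers summed to between 1559.8 and 1825 CPM over the saline control libraries and between 1842 and 1997 CPM over the IL-27 treated ones, although 4 of the 7 were higher in saline control. Each sum was without overlap and with 0 markers at 0. Without the ciliary-like nuclei both ranges overlapped (between 89.6 and 112 CPM over the saline control libraries and between 80.6 and 94.99 CPM over the IL-27 treated ones for RGC markers). Meg3 was apart both with these nuclei, at 311, 368 and 333 CPM in the saline control libraries and 293, 240.1 and 262 CPM in the IL-27 treated libraries, and without them, at 294, 359 and 331 CPM in the saline control libraries and 291, 239 and 251 CPM in the IL-27 treated libraries. Their part in the differences of Ntm, Cntn3 and Cntnap2 was not tested. Neither Ntm nor Cntn3 passed the threshold with edgeR, and both did with DESeq2 (DESeq2 adjusted p 3.97e-05 and 0.0255). Without the library IL-27 10 the log2FC of Ntm was -1.64 (SE 0.18, edgeR adjusted p 0.000898). With any other library left out it was between -1.44 and -1.11, with an edgeR adjusted p between 0.188 and 0.697. Without the ciliary-like nuclei Ntm was at 49.9, 64.6 and 51.1 CPM in the saline control libraries and 48.2, 46.4 and 55.1 CPM in the IL-27 treated libraries, a log2FC of -0.15 (SE 0.13), and Cntn3 had a log2FC of -0.01 (SE 0.33), both with overlapping groups. A further cluster of 83 Muller nuclei held the identifying genes at lower levels, and with it left out too, an alternative added after seeing the data, Ntm had a log2FC of 0.02 (SE 0.13). Lsamp had a log2FC of 0.06 (SE 0.16) in all Muller glia and of -0.12 (SE 0.14) without these nuclei. Cntnap2 was the gene whose groups stayed apart, at 109, 112 and 111 CPM in the saline control libraries and 87.2, 99.9 and 85.7 CPM in the IL-27 treated libraries without the ciliary-like nuclei, a log2FC of -0.28 (SE 0.11) with an edgeR adjusted p of 0.993. Groups did not overlap for 3 of 10 genes in all Muller glia (background 13.6%) and for 1 of 10 without the ciliary-like nuclei (background 10.2%). In the latter 0 of 10 passed an adjusted p of 0.05 with edgeR or DESeq2, with 1 at an unadjusted p under 0.05 with edgeR, beside 0.0292% of all genes called with edgeR and 0.124% with DESeq2.

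The 27 partner genes, relatives and ligands of these proteins such as Cntn2, Nfasc, Ptprg, App, Dscam and Sdk2, held 0 that passed an adjusted p of 0.05 with edgeR in any of the 11 types, and 1 in Muller glia with DESeq2. Between 3 (pericytes) and 27 (AC) of them were tested. At an unadjusted p under 0.05, 1 was higher and 2 were lower with IL-27 in microglia (13 tested, background 3.54% of all genes), and 2 were higher and 2 lower in Muller glia (21 tested, background 8.92%). In neurons the numbers higher and lower were 0 and 1 in rods, 2 and 1 in cones, 3 and 0 in BC, 2 and 0 in AC, 2 and 0 in HC and 1 and 0 in RGC (23, 18, 26, 27, 16 and 26 tested, backgrounds 3.43, 3.47, 3.06, 3.01, 4.95 and 3.36%), and there were none in astrocytes, endothelial cells and pericytes. The smallest p in microglia was that of Dscam, which keeps like cells apart in the retina, at 107, 122 and 104 CPM in the saline control libraries and 95.5, 43.7 and 79.4 CPM in the IL-27 treated libraries, a log2FC of -0.63 (SE 0.25, unadjusted p 0.0254, edgeR adjusted p 0.999). In Muller glia it was that of Sdk2, an adhesion gene of retinal synaptic layers, at 212, 246 and 170.1 CPM in the saline control libraries and 121, 95.4 and 152 CPM in the IL-27 treated libraries, a log2FC of -0.75 (SE 0.17, unadjusted p 0.00177, edgeR adjusted p 0.22). Without the ciliary-like nuclei Sdk2 had a log2FC of -0.40 (SE 0.13, edgeR adjusted p 0.993). The median log2FC of the partners tested was -0.09 in microglia and 0.01 in Muller glia, beside 0.00 and 0.00 over all genes tested.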

How the data were processed

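Single-nucleus RNA-seq of 6 retina libraries was read as deposited counts. Per the labels the authors isolated nuclei from frozen retina with a 10x Genomics kit, and the submitters' processing notes name Cell Ranger 9.0.1 and Seurat 5.2.1. The deposited count matrices name Cell Ranger 8.0.1 in their headers. The study's methods name the 10x Genomics mouse reference, and its build is not given in the sources used here. Gene positions are from GENCODE M21 (GRCm38), in which 99.85% of 32285 gene identifiers were found, by identifier.

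The 10 genes, the 27 partners, the markers and the alternatives were chosen with earlier results of these data known. Barcodes with over 500 UMIs, at least 200 genes and under 5% mitochondrial UMIs were kept, and Scrublet scores removed 615 to 716 doublets per library (8% expected, less the homotypic share). Nuclei were clustered (2000 variable genes, 25 components, Louvain resolution 0.25) without the members and partners, and clusters with at least 3 markers of a class in 10% of nuclei were named. In clusters 10 (BC), 12 (AC) and 22 (Muller glia) another class scored higher on fewer markers: cones, HC and pigmented epithelium (RPE). UMIs were summed per library over nuclei within 2 median absolute deviations of the median log2 count of all retained nuclei (605 to 19620 UMIs). Sums were tested with edgeR 4.0.16 (TMM, filterByExpr at 10 counts, quasi-likelihood F test, SE as the log2FC over the root of F) and, as an alternative, DESeq2 1.42.0, in R 4.3.3. On simulated microglia (9029 genes), edgeR recovered 41% of 100 genes changed 2-fold and 93% of 100 changed 4-fold, and on simulated Muller glia (14080 genes) 77% and 97%. It also called 5 and 14 unchanged genes. Simulated counts followed the dispersion trend, so a gene whose UMIs come from few nuclei, such as Cntn5 in microglia, was not simulated. Text names all 10 genes in every type, partners past an adjusted p of 0.05 or else the smallest p in microglia and in Muller glia, and the 3 genes most alike in pattern. Clusters and subtypes are rebuilt and may differ from those of the study. Intervals cover counting error only.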

Additional observations from a re-analysis of the deposited data

Results flagged for a closer look

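Unnamed clusters, which entered no comparison, also held the genes. Cluster 7 (1254 nuclei, 640 of them saline control, led by Gm12128 and Gm32122, with 2 AC markers) held the highest Cntn6 level of the 39 clusters, 2574 ± 264 CPM (SD, n = 6 libraries), with a Cntn6 UMI in 90.02% of nuclei. Saline control libraries were at 2421 ± 226 and IL-27 treated libraries at 2727 ± 229 CPM (SD, n = 3). Cluster 37 (254 nuclei), with both AC and BC markers and a median of 11490 UMIs, held 683 ± 265 CPM of Cntn6. Cluster 33 (152 nuclei), with rod and BC markers, held 4149.8 ± 506 CPM of Cntn4.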

How the results depend on the processing

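No paired analysis was possible because the groups share no replicate number (saline 1, 2 and 6, IL-27 4, 5 and 10). In microglia, 1 of the 10 genes (Cntn5) was called, and the count ran from 0 to 1 with a library left out, with 0 without saline 1, saline 6, IL-27 4 or IL-27 10, and the same with the 10% cutoff applied. It was 0 at resolution 0.5, with doublets put back, with the genes allowed into the clustering and, chosen after seeing the data, with the depth limit set within each type or with nuclei at 1% of UMIs from the genes or from neuronal genes left out, and 2 with no filter on low counts. The log2FC of Cntn5 was 0.18 with the depth limit set within each type, which leaves out deep nuclei, and between -1.76 and -1.504 with a library left out. Cutoffs of 5 and 20%, or of 10% of UMIs from neuronal genes, removed no nucleus. Muller glia gave 2 called genes with DESeq2 and with no filter, and 0 to 1 with a library left out. With no filter, 1 gene was called in cones, 1 in endothelial cells and 2 in pericytes, and with a library left out 0 to 1 in endothelial cells. Partners called were 1 with DESeq2 and 2 with no filter in Muller glia (0 to 2 with a library left out), and 1 with no filter in HC and in pericytes. The cause of these changes was not tested. Thinning to 1000 UMIs lowered the share of nuclei with a UMI from 94.4 to 81.3% (Ntm, cones), 94.3 to 54.05% (Opcml, RGC), 98.8 to 94.1% (Negr1, cones), 84.03 to 51.4% (Cntn1, Muller glia), 38.3 to 8.47% (Cntn3, RGC), 72.8 to 63.8% (Cntn4, BC), 37.9 to 31.6% (Cntn5, BC), 46.6 to 20.1% (Cntn6, BC) and 100 to 91.2% (Cntnap2, RGC). The level of each gene in its highest type moved by less than 1 SD over libraries under each alternative run for levels. These were all nuclei of the type, a depth limit within each type, doublets put back, resolution 0.5 and a library left out. Levels with the genes allowed into the clustering were not computed.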

Other observations

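Astrocytes carried several of the genes. Lsamp was at 2941 ± 340.2 CPM, Negr1 at 1005 ± 103 CPM, Cntn1 at 777 ± 159.7 CPM, Cntn6 at 102 ± 27.6 CPM and Cntnap2 at 569.9 ± 161 CPM (SD, n = 6 libraries), while Ntm, abundant in most neurons, was at 64.2 ± 26.2 CPM. In endothelial cells Lsamp was at 391 ± 211 CPM and Cntn5 at 146 ± 218 CPM, where IL-27 4 and IL-27 5, at 546 and 258 CPM, were the high libraries and Cntn5 was not tested.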
